A study of Homo sapiens with 60 samples.

Results

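The high dose of a Polygalae Radix extract was compared with its low dose in A549 cells, an established human lung adenocarcinoma line, across all measured genes. The libraries were chosen by their titles: 2 libraries of cells given 380 µg/mL (high dose) and 2 given 15.2 µg/mL (low dose), 4 of the 60 in the series. Both groups were A549 cells kept with an ethanol extract of the root for 24 h, so the dose, a ratio of 25, is the labelled difference between them. The high dose was set by the submitters from the growth inhibition that the extract gave in these cells, and the lower doses were dilutions of it. No vehicle library entered the comparison. The 2 libraries at the medium dose of 76 µg/mL are given beside it, and replicates are named 2 and 3 as in the labels. A549 is a single tumour-derived line, and no label says whether replicates were separate cultures.

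Polygalae Radix is the dried root of Polygala, a herb of East Asian medicine known for triterpenoid saponins, which are detergent-like glycosides. In growing epithelial cells, abundant messages encode the cytoskeleton, metabolic enzymes and the translation machinery, and these messages tend to be long-lived. Messages of many regulators, such as phosphatases of the MAP kinases and zinc finger repressors, are scarcer and turn over faster.

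Total expected counts ran from 17113963 to 29715967 over the 6 libraries, and the 10 markers set for A549 (keratins, CDH1, VIM, NQO1, aldo-keto reductases, ALDH1A1 and FGB) were all detected, at 11.9 to 7617 CPM (counts scaled to a common library total after TMM normalization). Their summed level was 3756 and 4165 CPM in the high-dose libraries and 22020 and 22690 CPM in the low-dose libraries. Of 10 markers of other cell types, PTPRC and CD3E were at 0 in all 6 libraries and none passed 3.08 CPM (CD14). The compared libraries also split on a gene without a symbol, ENSG00000282955, in a way no label accounts for. It had 37.6 CPM in high-dose replicate 2, against 0.673 CPM in high-dose replicate 3 and 2.59 and 1.55 CPM in the low-dose libraries. Genes of the mitochondrial chromosome held 18.4% and 9.04% of counts in high-dose replicates 2 and 3, against 9.39% and 7.99% in the low-dose libraries. The part of this split in the results was not tested, and values from high-dose replicate 3 against both low-dose libraries, all low in that gene and called 1 class, are given below as within-class values. There the lone high-dose library is assumed to vary like the other groups. In bulk libraries scaled to a common total, fewer cells of a kind and less RNA per cell cannot be told apart.

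The high dose and the low dose differed at most tested genes. Of 18355 genes, 10397 passed an adjusted p of 0.05 (edgeR quasi-likelihood test), which is 56.6% of those tested. Of these, 5077 were higher (27.7%) and 5320 lower (29%). At least 2-fold changes were found for 3612 genes (19.7%), with 1426 higher (7.77%) and 2186 lower (11.9%). The within-class fit called 10266 genes (55.9%), 4877 of them higher and 5389 lower. The median absolute log2 fold change was 0.56, and the median over all genes was 0.04, a centre that TMM scaling itself sets near 0. In the bin of genes with the highest mean CPM (below) the median was -0.36. Medians of lists with abundant genes are therefore not to be read against 0.04 alone. Counts in each list are read beside the 27.7% higher and 29% lower of all genes. In the bin with the highest mean CPM, 23.1% were higher and 55% lower. Among the 100 genes most abundant at the low dose, 4 were higher and 78 lower (median -1.07). Counts of lists with abundant genes are therefore not to be read against 29% alone. The libraries of the high and the low dose did not overlap at 13204 genes (71.9%).

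By count and size of change, the medium dose lay nearer to the low dose than to the high dose. The high dose differed from the medium dose at 8338 genes (45.4%; 3561 higher, 19.4%, and 4777 lower, 26%). At least 2-fold changes were found for 1903 genes there (10.4%), 640 higher (3.49%) and 1263 lower (6.88%). The medium dose differed from the low dose at 2039 genes (11.1%; 834 higher, 4.54%, and 1205 lower, 6.56%), 102 of them at least 2-fold (0.556%), 40 higher (0.218%) and 62 lower (0.338%). The median absolute log2 fold changes were 0.44 and 0.21. These comparisons share libraries with each other. Medium-dose replicate 2 was high in ENSG00000282955 (52.4 CPM), like high-dose replicate 2, and replicate 3 was low (0.634 CPM). Mitochondrial genes held 17.9% and 8.01% of their counts. The high and medium doses thus had the same mix of classes, while the medium and low doses did not. The part of this imbalance in the counts was not tested. The smaller count depended on single libraries: without medium-dose replicate 2 it was 591, without medium-dose replicate 3 it was 4308, without low-dose replicate 2 it was 881 and without low-dose replicate 3 it was 1076. With the medium-dose library of the low-dose class alone, it was 1267.

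When genes were split into 10 equal bins by mean CPM over the 4 libraries, 55% of the top bin were lower and 23.1% higher at the high dose, with a median log2 fold change of -0.36. In bin 4 from the bottom, 21.7% were lower and 34.2% higher, with a median of 0.22. Bin 7 was nearly even, with 36% lower and 34.9% higher. In the lowest bin 8.61% were lower and 6.7% higher, with a median of 0.01.

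Coding and noncoding transcripts differed in their shares, but the types were not matched for level. In the lowest level bin, with all types together, few genes were called in either direction (8.61% lower and 6.7% higher). Of 14026 protein-coding genes, 28.4% were higher and 35.9% lower. Of 1304 antisense genes 23.1% were higher and 5.37% lower, and of 901 lincRNA genes 25.3% were higher and 8.88% lower. Sense intronic transcripts, which lie inside the introns of other genes, had the largest median of the types plotted, 0.70 over 210 genes, with 32.9% higher and 1.9% lower. Reads of a sense intronic gene and of unspliced RNA of its host lie on the same strand and cannot be told apart. Within the class, the medians of the sense intronic, antisense and lincRNA genes were 0.76, 0.35 and 0.30. By the length of the longest transcript, 15.9% of genes in bin 2 of 10 were higher and 31.2% lower, against 39% higher and 28.9% lower in bin 9. In bin 1, the shortest, 13.2% were higher and 13.9% lower.

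**Figure D1:**
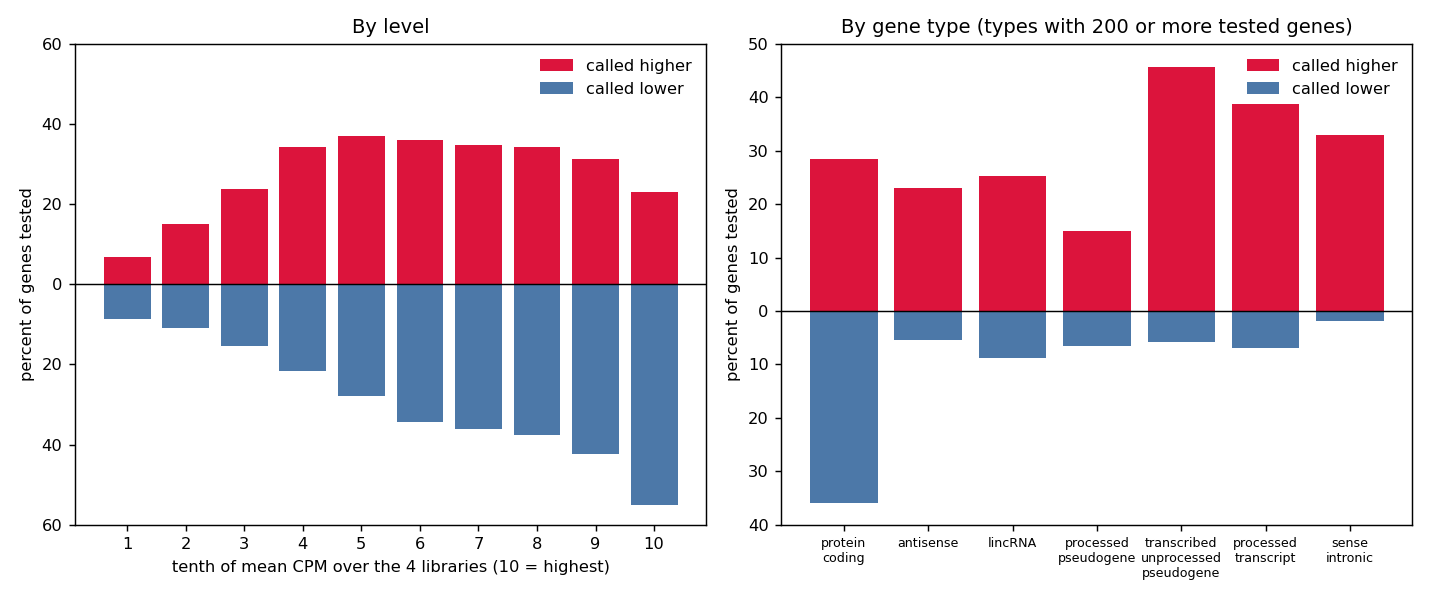
Percent of tested genes called higher (above the line) or lower (below the line) at the high dose against the low dose, edgeR adjusted p under 0.05; left, in 10 bins of mean CPM over the 4 libraries, right, by annotated gene type. The share called lower reaches 55% in the bin with the highest level, and noncoding types have few genes called lower. Gene types were not matched for level.

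The genes described next had the 15 highest and 15 lowest changes among those whose log2 CPM, averaged over all fitted libraries, reached 2, with keratin, heat shock and previously named genes left out, so less abundant genes can have larger changes. TLE3 (ENSG00000140332, chromosome 15, 70047790 to 70098176, GRCh38), a Groucho-family corepressor, had 70.7 and 53.2 CPM at the high dose, against 16.3 and 13.7 CPM at the low dose. The groups did not overlap, and the log2 fold change was 2.04 ± 0.14 (SE; edgeR adjusted p = 2.81e-15). PER3 and NR1D2, a period protein and a REV-ERB receptor of the circadian clock, rose by 2.02 ± 0.16 and 1.71 ± 0.16. NR1D2 (ENSG00000174738, chromosome 3, 23945260 to 23980618) had 66 and 78.5 CPM at the high dose, against 21.7 and 22.5 CPM at the low dose. The developmental factors TBX2 (1.84 ± 0.20) and FOXC1 (1.75 ± 0.25) and the GATA cofactor ZFPM1 (1.81 ± 0.28) rose as well. Within the class ZFPM1 was at 1.24 and FOXC1 at 1.27.

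MAP3K5, the stress-activated kinase ASK1 that acts upstream of JNK and p38, had 35.3 and 43.2 CPM at the high dose, against 10.6 and 10.8 CPM at the low dose, a rise of 1.87 ± 0.13 on the log2 scale (edgeR adjusted p = 5.48e-16). Both high-dose libraries were more than 3 times the low-dose level. CCDC78, a protein of centriole amplification in ciliated cells, had the largest rise of the genes named by the rule, 2.15 ± 0.24, with 16.7 and 10.7 CPM at the high dose, against 3.17 and 2.95 CPM at the low dose. PLD6, a phospholipase of the mitochondrial surface, rose by 2.05 ± 0.12, DOC2B, a calcium sensor of exocytosis, by 1.96 ± 0.14, LINGO1, a leucine-rich repeat membrane protein, by 1.93 ± 0.18, and RAB3IL1, an exchange factor for RAB GTPases, by 1.76 ± 0.22. The pseudogene CECR7 rose by 1.86 ± 0.17.

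NPIPP1 and NPIPB5, members of a family of near-identical copies on chromosome 16, are uncertain because reads can be split among the copies. NPIPB5 had 247.9 and 92.4 CPM at the high dose, against 52.4 and 46 CPM at the low dose. High-dose replicate 2 stood far above replicate 3: the log2 fold change was 1.79 with both, 0.91 within the class and 2.30 without high-dose replicate 3. For NPIPP1 it was 1.85, and without high-dose replicate 2 it was 0.89 and no longer called (edgeR adjusted p = 0.0827).

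Among the 15 genes with the lowest changes, ALDH3A1 (ENSG00000108602, chromosome 17), a cytosolic aldehyde dehydrogenase, had 83.1 and 79.4 CPM at the high dose, against 824.8 and 886.2 CPM at the low dose. The log2 fold change was -3.40 ± 0.12 (edgeR adjusted p = 2.4e-24). BCAS1 had 0.816 and 0.667 CPM at the high dose, against 13.6 and 11.4 CPM at the low dose (-4.09 ± 0.23), and F2, which encodes prothrombin, had 0.357 and 0.333 CPM, against 4.15 and 4.39 CPM (-3.62 ± 0.28). For both genes every high-dose library lay below 1 CPM and every low-dose library above 4 CPM.

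LGALS1, the secreted lectin galectin-1, had 16.7 and 28.6 CPM at the high dose, against 227.5 and 199.5 CPM at the low dose (-3.22 ± 0.23). TM4SF4, a tetraspan membrane protein, fell by 3.23 ± 0.16 on the log2 scale, SUSD2, a sushi-domain membrane protein, by 3.15 ± 0.26, MAGED2 by 3.01 ± 0.12 and CAPG, an actin-capping protein of the gelsolin family, by 2.99 ± 0.20. BCKDHA, a subunit of the branched-chain keto acid dehydrogenase, was at -3.14 ± 0.16. Leaving out high-dose replicate 2 gave -3.89 for SUSD2. SULT1A4 (-3.96 ± 0.43), which has a near-identical copy, and NME1-NME2 (-3.57 ± 0.60), a readthrough of neighbouring genes whose reads overlap theirs, are uncertain. Without high-dose replicate 3 their values were -5.95 and -4.25.

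**Figure D2:**
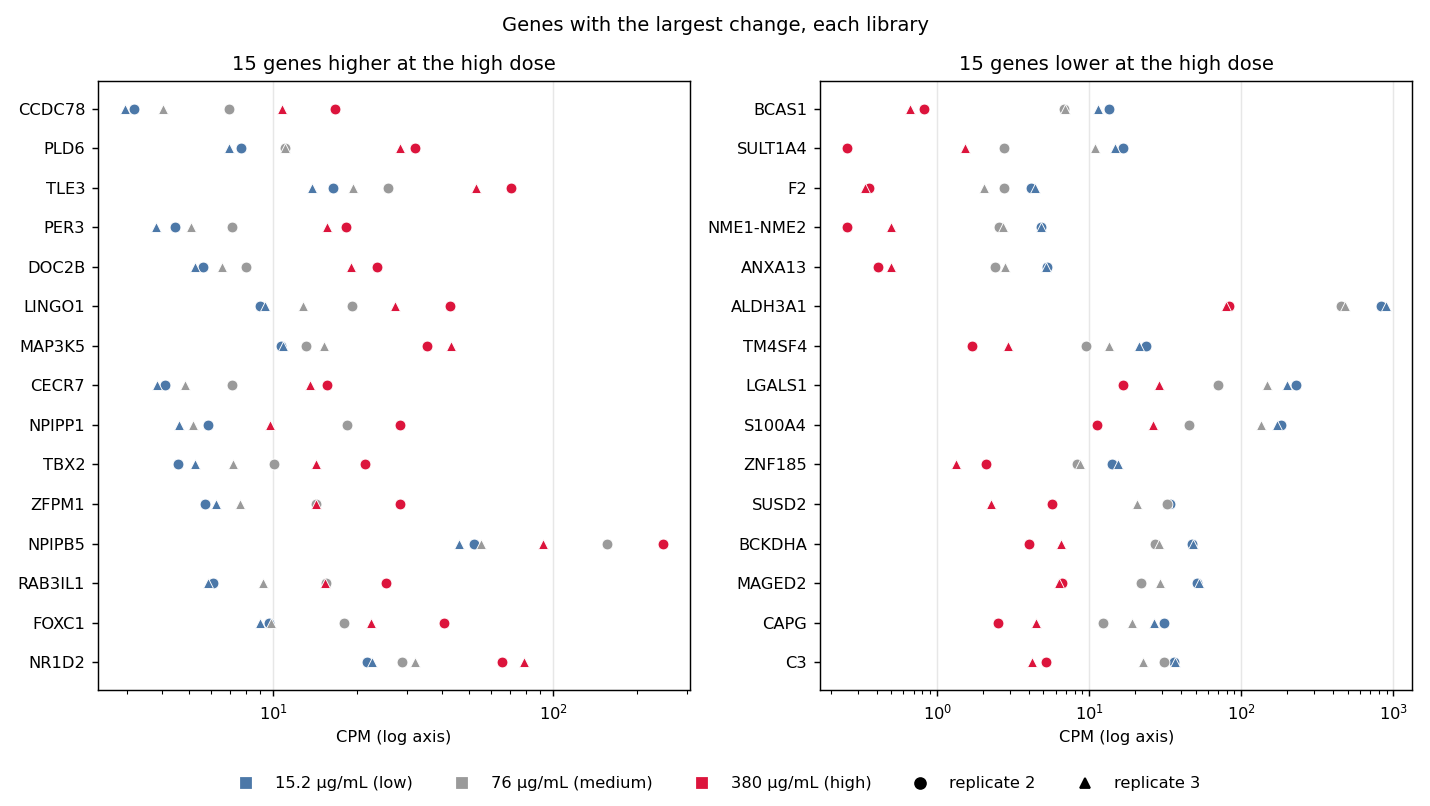
CPM (log axis) of the 15 highest and 15 lowest log2 fold changes chosen by the rule for named genes, in each library; color gives the dose from low to high and the symbol the replicate. High-dose libraries lie beyond both low-dose libraries for every gene shown, as the rule required.

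Promoters of the genes that rose were searched for short motifs, to describe the sequence next to their starts. Promoters ran from 250 bases before to 50 bases after the annotated start (RefSeq, GRCh38.p14), and 12151 tested genes had one. The E-box CACGTG, read by MYC, MNT and the clock factors, lay in 13.1% of promoters of genes at least 2-fold higher, in 8.64% of those at least 2-fold lower and in 9.88% of all. The cAMP response element TGACGTCA lay in 4.71%, 2.54% and 3.17% in the same order, and the AP-1 site TGANTCA in 7.06%, 5.98% and 4.8%. The CCAAT box CCAAT went the other way, with 29.9%, 39.6% and 36%. The GC box GGGCGG lay in 66%, 65.3% and 68.2%, and TATAAA in 7.06%, 8.4% and 6.05%. Both strands were searched, motifs that overlap one another were counted for each, and a match is a description of the letters, not of binding.

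Of 37 named genes at least 2-fold higher with a promoter in the table, 9 had an E-box. Promoters of 4 of them, TLE3, LINGO1, KLF11 and PER1, are shown because they hold the E-box, whose share was 13.1% in genes at least 2-fold higher and 9.88% in all. The E-box is in capitals, and each sequence runs 5′ to 3′ on the gene's strand. They are TLE3 at chr15:70097868-70098167 (minus strand), LINGO1 at chr15:77820851-77821150 (minus), KLF11 at chr2:10043579-10043878 (plus) and PER1 at chr17:8152355-8152654 (minus). The E-box began 68 bases before the start in TLE3, 141 in LINGO1, 182 in KLF11 and 173 in PER1.
TLE3: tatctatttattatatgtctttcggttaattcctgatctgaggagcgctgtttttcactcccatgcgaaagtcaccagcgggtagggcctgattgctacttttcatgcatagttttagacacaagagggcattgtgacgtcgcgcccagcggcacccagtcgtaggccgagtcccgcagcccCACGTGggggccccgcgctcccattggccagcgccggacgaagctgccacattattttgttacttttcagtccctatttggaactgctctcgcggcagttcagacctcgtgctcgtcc
LINGO1: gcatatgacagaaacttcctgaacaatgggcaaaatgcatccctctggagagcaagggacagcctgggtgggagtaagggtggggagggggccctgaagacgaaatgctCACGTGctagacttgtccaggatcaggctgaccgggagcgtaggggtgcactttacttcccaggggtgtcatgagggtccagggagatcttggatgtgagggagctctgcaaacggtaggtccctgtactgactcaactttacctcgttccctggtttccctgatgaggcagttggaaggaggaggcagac
KLF11: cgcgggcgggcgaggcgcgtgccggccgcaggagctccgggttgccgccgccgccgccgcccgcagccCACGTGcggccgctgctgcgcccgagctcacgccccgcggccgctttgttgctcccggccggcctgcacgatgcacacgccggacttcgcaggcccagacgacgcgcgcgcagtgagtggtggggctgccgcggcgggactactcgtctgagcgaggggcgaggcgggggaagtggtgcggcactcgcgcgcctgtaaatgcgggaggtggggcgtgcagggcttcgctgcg
PER1: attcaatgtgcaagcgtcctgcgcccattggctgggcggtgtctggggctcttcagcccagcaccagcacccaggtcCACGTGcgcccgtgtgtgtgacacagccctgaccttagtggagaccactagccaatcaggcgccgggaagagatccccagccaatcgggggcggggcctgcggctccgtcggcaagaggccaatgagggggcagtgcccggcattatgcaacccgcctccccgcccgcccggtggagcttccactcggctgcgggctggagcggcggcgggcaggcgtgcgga

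The list of zinc finger genes, read by their ZNF symbols, was mostly higher. Most proteins of this family bind DNA through C2H2 fingers, and many repress transposons and genes through a KRAB domain. Of 509 genes with such symbols, 423 were tested; 338 were higher and 7 lower, against 27.7% and 29% of all genes. The median log2 fold change was 0.80 against 0.04 for all genes, 126 were at least 2-fold higher, and within the class the counts were 338 and 6. Their summed level was 11810 and 11440 CPM at the high dose, against 6957 and 7039 CPM at the low dose. ZNF121 (ENSG00000197961, chromosome 19) had 84.1 and 109.2 CPM at the high dose, against 30.6 and 29.3 CPM at the low dose, a rise of 1.69 ± 0.18. ZNF502 rose by 1.66 ± 0.15 and ZNF548 by 1.61 ± 0.14 (edgeR adjusted p = 3.72e-12 and 1.84e-12).

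The zinc finger genes that fell included ZNF185, a LIM-domain protein that binds actin and is no C2H2 factor, with 2.09 and 1.33 CPM at the high dose, against 14.2 and 15.4 CPM at the low dose (-3.16 ± 0.12). ZNF428 fell by 0.88 ± 0.11. In promoters of the 292 ZNF genes that were called higher at any fold and had one, CCAAT lay in 45.5% and the E-box in 6.16%. Over all tested genes the shares were 36% and 9.88%. In genes at least 2-fold higher, a stricter set that can hold ZNF genes too, they were 29.9% and 13.1%. Reads of zinc finger genes with close paralogs can be shared between them.

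**Figure D3:**
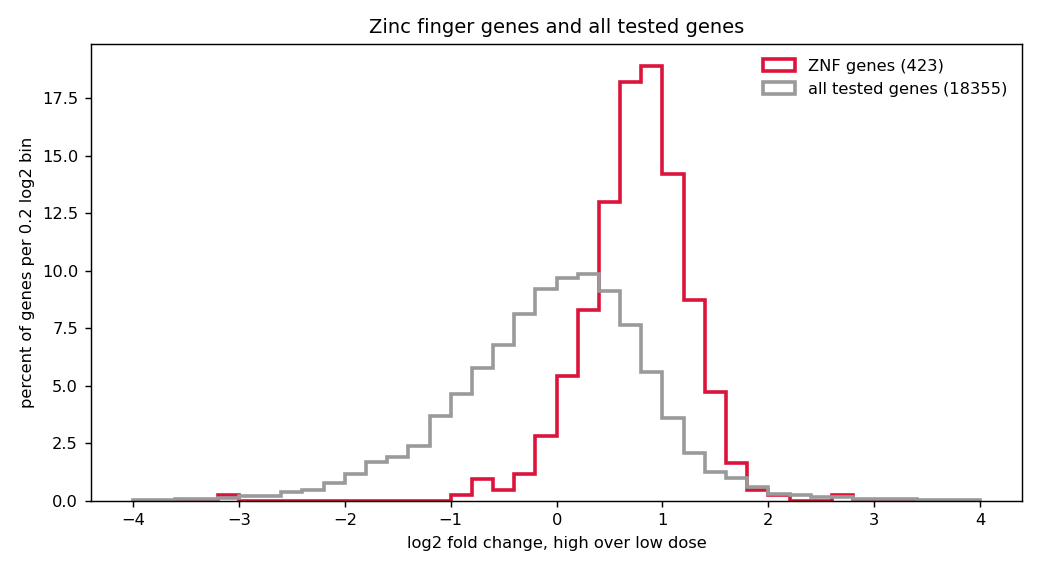
Distribution of log2 fold changes, high over low dose, of 423 ZNF genes and of all 18355 tested genes, in percent of each group per bin. The ZNF genes are shifted to a median of 0.80, with 7 called lower.

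MAP kinase phosphatases and feedback inhibitors were higher at the high dose. These enzymes strip phosphate from ERK, JNK and p38, and the Sprouty and SPRED proteins damp the pathway above ERK. Of 16 tested, 15 were higher and 1, DUSP14, was lower, with a median of 0.89. DUSP5, which acts on nuclear ERK, had 115.7 and 110.5 CPM at the high dose, against 46.2 and 48.5 CPM at the low dose (1.26 ± 0.09, edgeR adjusted p = 9.99e-15). DUSP16, a JNK phosphatase, had 140.4 and 139.8 CPM, against 68.4 and 62.8 CPM (1.09 ± 0.07). DUSP6, which acts on cytoplasmic ERK, rose by 0.96 ± 0.10. The replicates of these 3 genes lay close together within each dose, and the doses did not overlap.

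DUSP8, a phosphatase of JNK and p38 chosen after its values were seen, had the largest rise of the list, 3.08 ± 0.26. It had 2.2 and 1.64 CPM at the low dose, 3.7 and 1.62 CPM at the medium dose and 20.7 and 12 CPM at the high dose. Its medium-dose libraries thus stayed near the low-dose ones. DUSP14 had 19.9 and 19.3 CPM at the high dose, against 23.8 and 27.1 CPM at the low dose. Without low-dose replicate 3 its fall was no longer called (edgeR adjusted p = 0.0728).

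Of 12 Krüppel-like factors tested, 9 were higher and none lower (median 0.62), while 3, KLF7, KLF9 and KLF12, did not pass. KLF11, a repressor induced by TGF-beta, had 25.9 and 22.3 CPM at the high dose, against 6.77 and 8.03 CPM at the low dose (1.70 ± 0.14). KLF2 rose by 1.55 ± 0.21 and KLF4 by 1.15 ± 0.14. Without high-dose replicate 2 the KLF2 value was 1.04. Of 14 cAMP-responsive genes 11 were higher and 1 lower (median 0.74). The period gene PER1 had 36.8 and 30.4 CPM at the high dose, against 14.1 and 14.2 CPM at the low dose (1.25 ± 0.12), the CREB coactivator CRTC3 rose by 1.20 ± 0.10 and RGS2, an inhibitor of G protein signalling, by 1.04 ± 0.11. The member called lower was CREM (-0.26), a call that rested on single libraries. It was lost within the class (-0.05, edgeR adjusted p = 0.685), without high-dose replicate 2 (edgeR adjusted p = 0.72) and without either low-dose library (edgeR adjusted p = 0.132 and 0.0804).

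Of 15 genes of the JAK-STAT feedback list, which limit or carry cytokine signals, 11 were higher and 3 lower (median 0.61). Without high-dose replicate 3, 7 were higher, and within the class 10 were higher and 1 lower. The call of IL6ST, a receptor subunit at -0.40, was lost without high-dose replicate 2 (-0.20, edgeR adjusted p = 0.339) and without low-dose replicate 3 (edgeR adjusted p = 0.124). SOCS2 had 30.6 and 28.1 CPM at the high dose, against 13.3 and 14.2 CPM at the low dose (1.09 ± 0.10), SOCS7 rose by 0.98 ± 0.10 and SOCS3 by 0.89 ± 0.09. The transcription factor STAT3 had 82.4 and 73.5 CPM at the high dose, against 182.5 and 184.7 CPM at the low dose (-1.24 ± 0.06, edgeR adjusted p = 2.2e-21). Of 19 interferon-stimulated genes 6 were higher and 8 lower (median -0.50), against 27.7% and 29% of all genes. OAS1 (-1.48 ± 0.13) and OAS3 (-1.46 ± 0.08), enzymes that sense double-stranded RNA, fell, while ISG20 (0.64 ± 0.11) and IFIT5 (0.52 ± 0.10) rose. IFIT2, chosen after its values were seen, had 4.33 and 4.57 CPM at the high dose, against 1.01 and 1.11 CPM at the low dose (2.07 ± 0.31).

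Antigen presentation and complement genes were mostly lower. Of 15 antigen presentation genes 12 were lower and 1 higher (median -0.88). HLA-C, a class I heavy chain, changed by -1.67 ± 0.15 and PSMB9, an immunoproteasome subunit, by -1.78 ± 0.19. The member that rose, NLRC5, a transactivator of class I genes named after its values were seen, was at 0.50 ± 0.20. HLA genes resemble one another, and reads can be shared between them. Of 14 complement genes 10 were lower and 1 higher (median -1.50). C3, the central component, had 5.2 and 4.2 CPM at the high dose, against 36.1 and 36.9 CPM at the low dose (-2.97 ± 0.15). C5, a component further down the cascade, fell by 2.39 ± 0.09. The member that rose was CD55, a membrane inhibitor of the complement convertases, with 87 and 81.7 CPM at the high dose, against 33.6 and 39.8 CPM at the low dose (1.20 ± 0.10).

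Of 7 genes of the plasminogen system 5 were lower and none higher (median -1.18). PLAU, the urokinase activator, had 13.9 and 18 CPM at the high dose, against 50.4 and 50.3 CPM at the low dose (-1.65 ± 0.12). The 2 members that did not pass were PLG at -0.75 and the urokinase receptor PLAUR at 0.13.

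Of 13 BMP targets and SMAD feedback genes 6 were higher and 4 lower (median 0.36). The inhibitory SMAD6 had 154.5 and 146.4 CPM at the high dose, against 75.9 and 69.7 CPM at the low dose (1.05 ± 0.08). ID3, a dominant-negative helix-loop-helix factor, rose by 0.83 ± 0.10 and HES1 by 0.77 ± 0.15, while GREM1, a secreted BMP antagonist, fell by 0.73 ± 0.17. BMP4 was called at -0.53, and without high-dose replicate 3 it was at -0.31 and not called (edgeR adjusted p = 0.265), nor without low-dose replicate 2 (-0.40, edgeR adjusted p = 0.152). Of 11 Notch pathway genes 6 were higher and none lower (median 0.44, within the class 0.20), HEYL by 1.15 ± 0.15 and MAML1 by 0.87 ± 0.11. Within the class the MAML1 value was 0.57 and the Notch pathway list had 4 higher; it had 3 when high-dose replicate 2 was left out and 2 when low-dose replicate 3 was.

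Of 9 Wnt targets and inhibitors 4 were higher and 3 lower (median -0.04, within the class -0.12). DKK1, a secreted Wnt inhibitor, had 43.2 and 59 CPM at the high dose, against 135.3 and 151.1 CPM at the low dose (-1.48 ± 0.12). AXIN1, a scaffold of the destruction complex, rose by 1.10 ± 0.10, and ZNRF3, a ligase that removes Frizzled receptors, by 0.88 ± 0.10. Of 17 receptor tyrosine kinases and EGF-family ligands 4 were higher and 8 lower (median -0.27). AXL had 66.2 and 66.9 CPM at the high dose, against 211.6 and 207.9 CPM at the low dose (-1.66 ± 0.06, edgeR adjusted p = 3.3e-24), NRG1 fell by 0.64 ± 0.06 and IGF1R rose by 0.57 ± 0.12. HBEGF, a ligand of the EGF receptor chosen after its values were seen, rose by 1.45 ± 0.17. Of 18 ephrins and Eph receptors 5 were higher and 4 lower, shares near those of all genes; the median was 0.10 and turned to -0.12 within the class. The receptors gave both directions, with EPHB2 at -1.03 ± 0.12 and EPHB4 at 0.51 ± 0.09.

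In the MYC network, whose factors bind E-boxes as dimers with MAX, 7 of 11 genes were higher and 2 lower (median 0.50). MNT, a repressor that competes with MYC, had 131.5 and 93.6 CPM at the high dose, against 47.1 and 39.3 CPM at the low dose (1.38 ± 0.14), and MXI1 rose by 0.80 ± 0.12. MYC itself had 217.5 and 159.4 CPM, against 117.3 and 121.7 CPM (0.66 ± 0.14), and within the class it was at 0.42. MXD4 fell by 0.72 ± 0.09. Of 13 cyclins and CDK inhibitors of G1 4 were higher and 5 lower (median -0.11), where 27.7% and 29% of all genes were. CDKN1A, the CDK inhibitor p21, had 50.8 and 49.2 CPM at the high dose, against 87.6 and 89.5 CPM at the low dose (-0.83 ± 0.07), while CDKN1B, the related inhibitor p27, had 55.4 and 54.1 CPM, against 37 and 38.3 CPM (0.54 ± 0.08). CCND3 fell by 0.72 ± 0.09 and CCNE2 rose by 0.68 ± 0.14.

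Regulators of chromatin and transcription elongation were more often higher than lower. Of 40 histone lysine demethylases and methyltransferases 23 were higher and 6 lower (median 0.32). EZH1, a methyltransferase of histone H3 lysine in Polycomb complexes, had 67.5 and 61.3 CPM at the high dose, against 25.7 and 25.5 CPM at the low dose (1.33 ± 0.09, edgeR adjusted p = 1.01e-15). KDM6B, which removes that mark, was called at 1.26 ± 0.22 and KMT2D, an enhancer methyltransferase, at 1.24 ± 0.22; within the class they were at 0.67 and 0.90. KDM4A and KDM1B, both demethylases, fell by 0.58 ± 0.07 and 0.55 ± 0.10. Of 17 genes of P-TEFb, the kinase that releases paused polymerase, and of elongation regulators, 10 were higher and 5 lower (median 0.34). ELL2, a subunit of the super elongation complex, rose by 0.88 ± 0.07 and cyclin T1 (CCNT1) by 0.84 ± 0.13. Without high-dose replicate 3 the CCNT1 value was 0.55. NELFE, a subunit of the negative elongation factor, had 24.6 and 22.9 CPM at the high dose, against 59.7 and 56 CPM at the low dose (-1.29 ± 0.12).

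Of 48 histone genes tested, 12 were higher and 12 lower (median 0.14, within the class 0.05), shares close to the 27.7% and 29% of all genes. H2BC5 had 1.89 and 1.77 CPM at the high dose, against 7.12 and 7.1 CPM at the low dose (-1.96 ± 0.17), and H2AC6 had 3.36 and 4.27 CPM, against 13.8 and 13.4 CPM (-1.81 ± 0.17). The linker histones H1-3 and H1-4, chosen after their values were seen, were called higher from levels near 0. H1-4 had 2.65 and 2.5 CPM at the high dose, against 0.244 and 0.167 CPM at the low dose, and H1-3 had 1.33 and 1.33 CPM, against 0.0349 and 0.134 CPM, too few counts for a fold. Many histone genes are near-identical copies, so single members are uncertain.

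**Figure D4:**
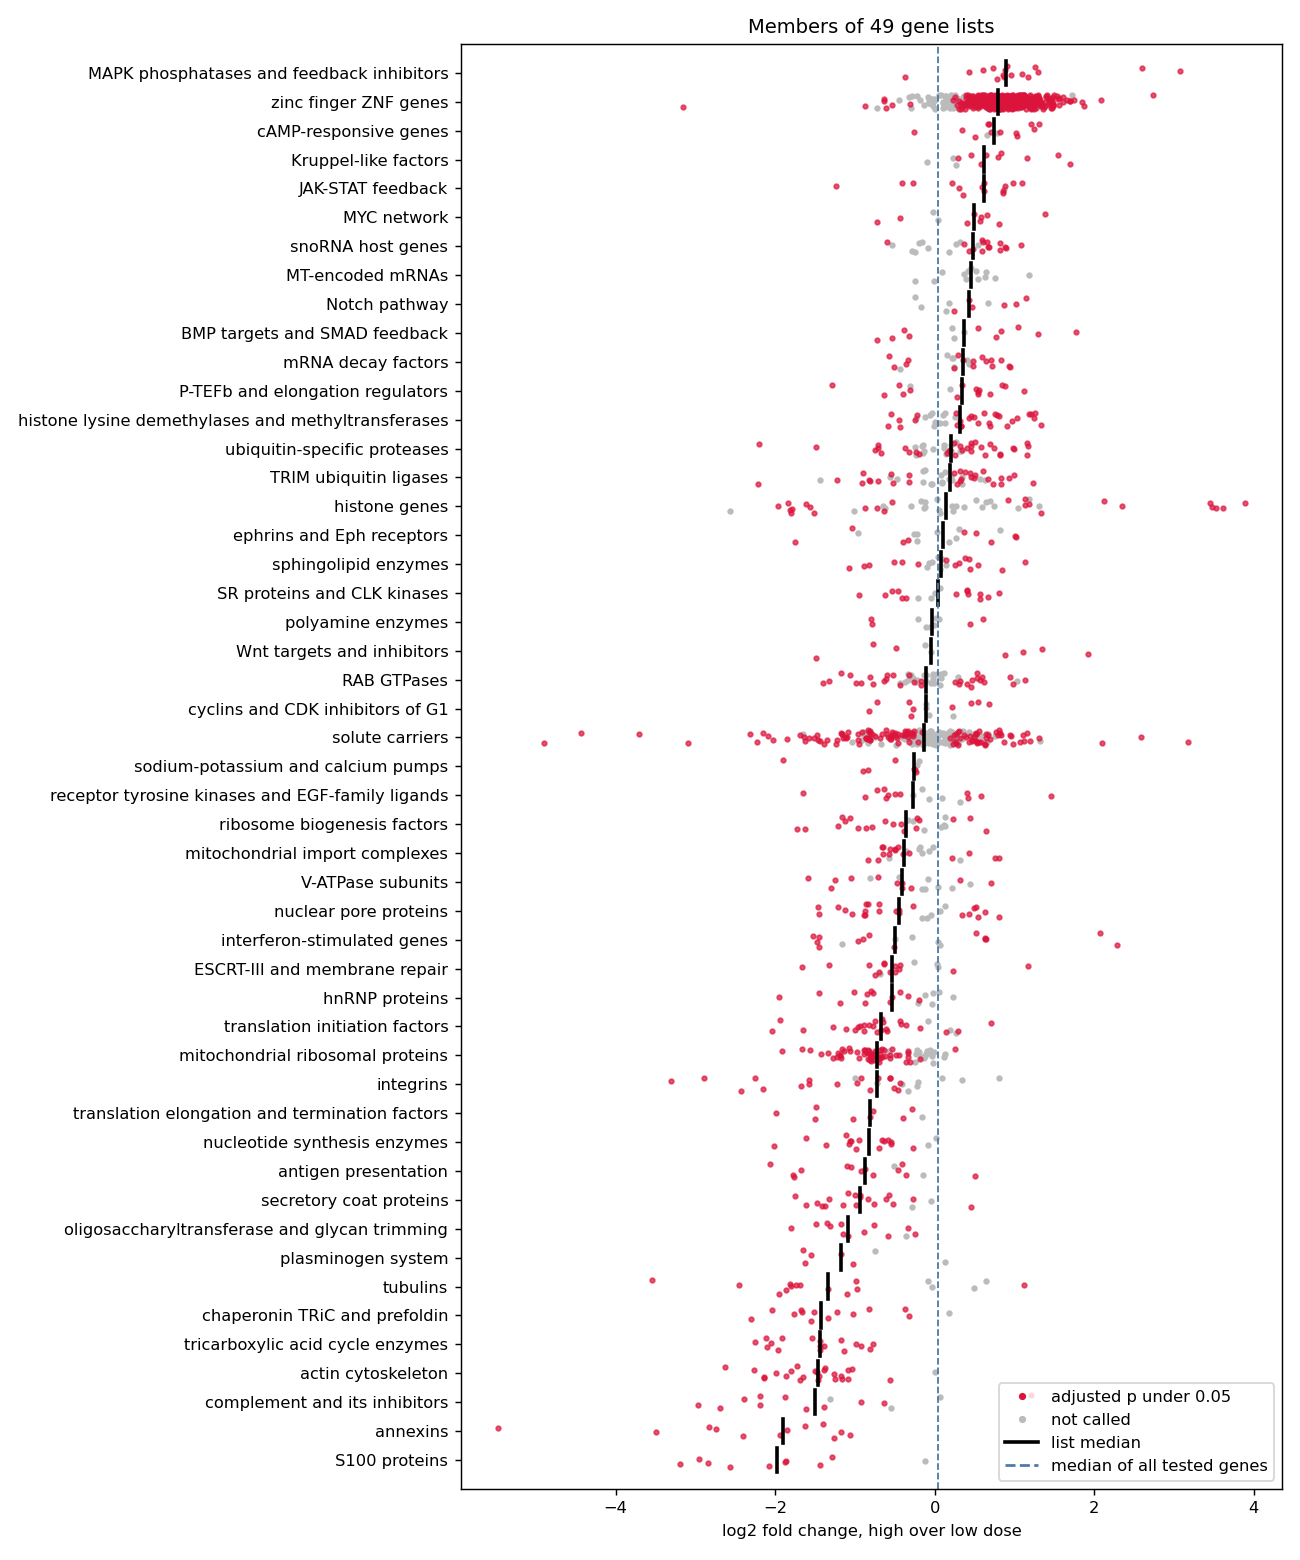
Log2 fold change, high over low dose, of the tested members of 49 gene lists, 1 point per gene, in order of the list median (black bar); red points passed an adjusted p of 0.05 and the dashed line is the median of all tested genes, 0.04. MAPK phosphatases (median 0.89) are at the top and S100 proteins (-1.97) at the bottom.

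Cytoskeletal genes were lower almost throughout. Of 25 genes of the actin cytoskeleton 24 were lower and none higher (median -1.46), 23 of them at least 2-fold. ACTB and ACTG1, the cytoplasmic actins, were at -1.50 and -1.37. MYH9, the heavy chain of non-muscle myosin, had 127.8 and 100.8 CPM at the high dose, against 731.3 and 674.9 CPM at the low dose (-2.62 ± 0.11, edgeR adjusted p = 1.76e-22). FLNA, which crosslinks filaments, had 568.3 and 465.2 CPM, against 2347 and 2197 CPM (-2.14 ± 0.10), and MSN, which ties actin to the membrane, fell by 2.27 ± 0.11. The high-dose libraries lay below the low-dose libraries for these genes with no overlap. The member that did not pass was ZYX, a focal adhesion protein named for that reason after its values were seen, with 178 and 88.4 CPM at the high dose, against 137.1 and 127.9 CPM at the low dose.

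Of 17 tubulins 12 were lower and 1, TUBA3D, was higher at about 1 CPM or less, though not within the class (median -1.34). TUBB had 491.8 and 413.8 CPM at the high dose, against 1765 and 1730 CPM at the low dose (-1.95 ± 0.12). TUBA4A fell by 2.46 ± 0.20 and TUBB4A by 1.86 ± 0.26. Tubulin genes resemble each other in sequence, and the split of reads among them is uncertain. The chaperonin TRiC, which folds actin and tubulin, and prefoldin, which hands them over, had 13 of 14 genes lower and none higher (median -1.43). CCT7 had 129.9 and 152.3 CPM at the high dose, against 682.1 and 715.7 CPM at the low dose (-2.31 ± 0.08), CCT3 fell by 2.03 ± 0.11 and CCT4 by 1.77 ± 0.12. All 8 TRiC subunits fell, and PFDN4 (0.18) was the member that did not pass.

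Among genes whose symbols start with ITG, 18 of 27 were lower and none higher (median -0.72). They are integrins, the matrix receptors, apart from a few others such as ITGB3BP, a kinetochore protein. ITGB4, the hemidesmosome chain, had 4.23 and 3.87 CPM at the high dose, against 31.7 and 28.4 CPM at the low dose (-2.90 ± 0.12). ITGA11 fell by 1.68 ± 0.11 and ITGA3 by 1.58 ± 0.13. All 12 annexins, which bind membranes in a calcium-dependent way, were lower (median -1.90), each at least 2-fold. ANXA6 had 7.95 and 9.33 CPM at the high dose, against 67.7 and 55.8 CPM at the low dose (-2.83 ± 0.11). ANXA3 fell by 2.74 ± 0.12 and ANXA13 by 3.49 ± 0.24. ANXA2, the annexin that pairs with S100A10 (named after its values were seen), had 474.3 and 474.1 CPM, against 2520 and 2497 CPM (-2.40 ± 0.08).

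Of 10 S100 proteins, small calcium sensors, 9 were lower, each at least 2-fold (median -1.97). S100A4 had 11.3 and 26.4 CPM at the high dose, against 181.8 and 170.5 CPM at the low dose (-3.20 ± 0.33), and without high-dose replicate 3 the fitted value was -4.0. S100A6 had 57.5 and 104.3 CPM, against 674.4 and 580.4 CPM (-2.95 ± 0.31), and S100A3 fell by 2.85 ± 0.24. S100A1 did not pass, at -0.12. The ESCRT-III complex, which cuts and repairs membranes, had 12 of 18 genes lower and 2 higher (median -0.53). CHMP2A (-1.66 ± 0.14) and the ESCRT adaptor PDCD6IP (-1.32 ± 0.06) fell. CHMP1B rose, with 208.7 and 196.7 CPM at the high dose, against 89.9 and 89.6 CPM at the low dose (1.18 ± 0.06, edgeR adjusted p = 1.05e-19). The other member that rose was CHMP7, by 0.23 ± 0.06; without high-dose replicate 3 its value was 0.13 and without low-dose replicate 2 it was 0.17, neither called.

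Every enzyme of the tricarboxylic acid cycle on the list, 17 of 17, was lower (median -1.43), 13 of them at least 2-fold. OGDH, the oxoglutarate dehydrogenase, had 16.8 and 11.7 CPM at the high dose, against 65.9 and 67.8 CPM at the low dose (-2.25 ± 0.14, edgeR adjusted p = 6.36e-17). FH, the fumarase, had 17 and 23.7 CPM, against 88.7 and 89.4 CPM (-2.12 ± 0.15), and MDH2, the mitochondrial malate dehydrogenase, 77.3 and 62.4 CPM, against 306.7 and 293.2 CPM (-2.10 ± 0.13). The list was lower at the medium dose as well, with 13 of 17 called against the low dose and a median of -0.42. Of 78 mitochondrial ribosomal proteins 60 were lower and 1, MRPL50, was higher (median -0.72). MRPL24 had 22.8 and 25.9 CPM at the high dose, against 94.1 and 89.8 CPM at the low dose (-1.91 ± 0.11). MRPL50 was called at 0.25 ± 0.08, and without high-dose replicate 3 at 0.20 or low-dose replicate 3 at 0.21 it was not. Of 24 genes of the import complexes 12 were lower and 4 higher, with a median of -0.38 that was -0.14 within the class. TIMM10 was at -0.83 ± 0.13 and TIMM10B at 0.76 ± 0.08.

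The 13 mRNAs encoded by the mitochondrial genome itself gave no call in either direction, with 0 lower and 0 higher by edgeR. Their median was 0.45 with both high-dose libraries and -0.47 within the class. Their summed level was 125200 CPM in high-dose replicate 2 and 47950 CPM in replicate 3, against 69450 and 55500 CPM in the low-dose libraries, so the high-dose libraries lay on both sides of the low-dose ones.

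Genes of nucleotide synthesis were lower in 16 of 18 cases and higher in none (median -0.82). RRM1, the large subunit of ribonucleotide reductase, had 44.9 and 47.8 CPM at the high dose, against 184.2 and 190.2 CPM at the low dose (-2.01 ± 0.07). ATIC, which ends purine synthesis, fell by 1.61 ± 0.08 and IMPDH2, which leads to guanine nucleotides, by 1.37 ± 0.07. The 2 that did not pass were PPAT (-0.08) and RRM2 (0.01). Of 10 polyamine genes 2 were higher and 2 lower (median -0.03, within the class 0.04). ODC1, the rate-limiting enzyme, rose by 0.44 ± 0.09 and SMOX, a spermine oxidase, by 0.60 ± 0.11, while its antizyme OAZ1 fell by 0.80 ± 0.16 and SMS, spermine synthase, by 0.78 ± 0.09.

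Of 22 sphingolipid genes 9 were higher and 6 lower (median 0.08), against 27.7% and 29% of all genes. SPTLC1 and SPTLC2, subunits of the enzyme that starts the pathway, fell by 0.88 ± 0.08 and 1.07 ± 0.16. SPHK1, a sphingosine kinase, had 9.64 and 13.3 CPM at the high dose, against 5.62 and 4.95 CPM at the low dose (1.13 ± 0.18). Of 230 solute carriers 50 were higher and 80 lower (median -0.14), against the same shares of all genes. SLC25A5, an ADP/ATP carrier, had 94 and 130.8 CPM, against 528.6 and 521.9 CPM (-2.22 ± 0.14), and SLC3A2, the heavy chain of amino acid exchangers, 237.1 and 308.4 CPM, against 1003 and 959.1 CPM (-1.85 ± 0.15). SLC25A29, a mitochondrial carrier of basic amino acids, had 26.3 and 24.1 CPM, against 10 and 10.3 CPM (1.31 ± 0.11). Of 9 sodium-potassium and calcium pump genes 7 were lower and none higher (median -0.26), and without high-dose replicate 2, 4 were lower. ATP1B1 was at -0.50 and ATP2A2, a calcium pump of the endoplasmic reticulum, at -0.24.

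Most genes of translation on the lists were lower. Of 29 initiation factors 23 were lower and 3 higher (median -0.67). EIF3C and EIF3I, subunits of the scaffold that recruits the small ribosomal subunit, both fell. EIF3C had 97.9 and 89.3 CPM at the high dose, against 402.4 and 366.3 CPM at the low dose (-2.04 ± 0.15), and has a near-identical copy. EIF3I had 42.2 and 50.4 CPM, against 179.7 and 175 CPM (-1.94 ± 0.11). The helicase cofactor EIF4B (0.30 ± 0.05) and the helicase paralog EIF4A2 (0.70 ± 0.08) rose. Of 9 elongation and termination factors 8 were lower and none higher (median -0.82). EEF2, the translocase, had 354.8 and 324.9 CPM, against 1366 and 1329 CPM (-1.99 ± 0.08), and EEF1A1, which delivers aminoacyl-tRNA, 1857 and 2519 CPM, against 6224 and 6126 CPM (-1.50 ± 0.12). Of 26 ribosome biogenesis factors 16 were lower and 3 higher (median -0.36), with NHP2 at -1.73 ± 0.16, BOP1 at -1.62 ± 0.13 and WDR43 at 0.65 ± 0.08.

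By contrast, of 25 small nucleolar RNA host genes, whose introns carry guides for rRNA modification, 14 were higher and 1 lower (median 0.48). SNHG1 had 192.4 and 210 CPM at the high dose, against 108.2 and 110.1 CPM at the low dose (0.88 ± 0.08). SNHG4 rose by 1.08 ± 0.17 and SNHG14 fell by 0.59 ± 0.08. Without high-dose replicate 3, 6 snoRNA host genes were higher. Of 19 hnRNP genes, which package nuclear RNA, 13 were lower and none higher (median -0.54), with HNRNPM at -1.95 ± 0.07 and HNRNPK at -1.45 ± 0.07. SR proteins and the CLK kinases that phosphorylate them were split, with 8 higher and 6 lower of 18 (median 0.04); CLK1 rose by 0.67 ± 0.09 and SRSF3 fell by 0.95 ± 0.12. Of 23 mRNA decay factors 12 were higher and 4 lower (median 0.36). TOB1, which recruits the CCR4-NOT deadenylase, had 315 and 249.7 CPM at the high dose, against 153.8 and 162.7 CPM at the low dose (0.83 ± 0.11), and ZFP36L2, which binds AU-rich elements, rose by 0.93 ± 0.10. ELAVL1, which stabilises such messages, fell by 0.57 ± 0.07.

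Most coat and glycosylation genes were lower. Of 21 coat proteins that move cargo between the ER and Golgi 18 were lower and 1, SEC24B (0.46), was higher (median -0.94). COPA had 62 and 58.6 CPM at the high dose, against 206.1 and 199.8 CPM at the low dose (-1.75 ± 0.06, edgeR adjusted p = 8.47e-26). COPG1 fell by 1.62 ± 0.09 and SEC13 by 1.48 ± 0.08. Of 13 genes of the oligosaccharyltransferase and of glycan trimming 12 were lower and none higher (median -1.09), GANAB, a glucosidase of newly made glycoproteins, by -1.80 ± 0.08 and RPN2 by -1.34 ± 0.10. Of 19 V-ATPase subunits 9 were lower and 2 higher (median -0.41, within the class -0.22). ATP6V1A, the catalytic subunit, fell by 1.58 ± 0.12, and ATP6V1E2 rose by 0.71 ± 0.09. Of 56 RAB GTPases 14 were higher and 17 lower (median -0.11, within the class -0.05), also close to the 27.7% and 29% of all genes, with RAB13 at -1.40 ± 0.13 and RAB29 at 0.94 ± 0.09.

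Of 28 nuclear pore genes 16 were lower and 7 higher (median -0.44, within the class -0.29). The scaffold genes NUP93, NUP133 and NUP37 fell by 1.46 ± 0.07, 1.46 ± 0.09 and 1.21 ± 0.13. NUP50, a mobile basket protein, had 129.6 and 125.9 CPM at the high dose, against 70.2 and 76.3 CPM at the low dose (0.80 ± 0.07). Among 48 ubiquitin-specific proteases 23 were higher and 10 lower (median 0.21). USP5, which takes apart free ubiquitin chains, had 43.2 and 44.1 CPM at the high dose, against 203.8 and 196.6 CPM at the low dose (-2.20 ± 0.06), while USP36, a nucleolar enzyme, had 228.6 and 194.6 CPM, against 95.9 and 91.6 CPM (1.17 ± 0.09). USP12 rose by 1.16 ± 0.10. Among 48 TRIM ligases 18 were higher and 11 lower (median 0.19), with TRIM11 at 1.00 ± 0.09 and TRIM6 at -0.91 ± 0.07.

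Levels at the medium dose lay between those at the low and the high dose for the lists plotted by dose. The summed CPM of the tricarboxylic acid cycle genes was 1959 and 1917 at the low dose, 1369 and 1495 at the medium dose and 679.4 and 691.9 at the high dose. The annexins gave 4490 and 4549, 2813 and 3177, and 1088 and 1157 CPM from low to high dose. The MAPK phosphatase list gave 515.1 and 523.1, 569.8 and 564.5, and 931.3 and 923.5 CPM, and the ZNF genes 6957 and 7039, 8422 and 7654, and 11810 and 11440 CPM. Between the medium and the low dose, 1 of 16 MAPK phosphatase genes and 54 of 423 ZNF genes were higher by edgeR. Whether the shape over dose differs between lists was not tested.

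**Figure D5:**
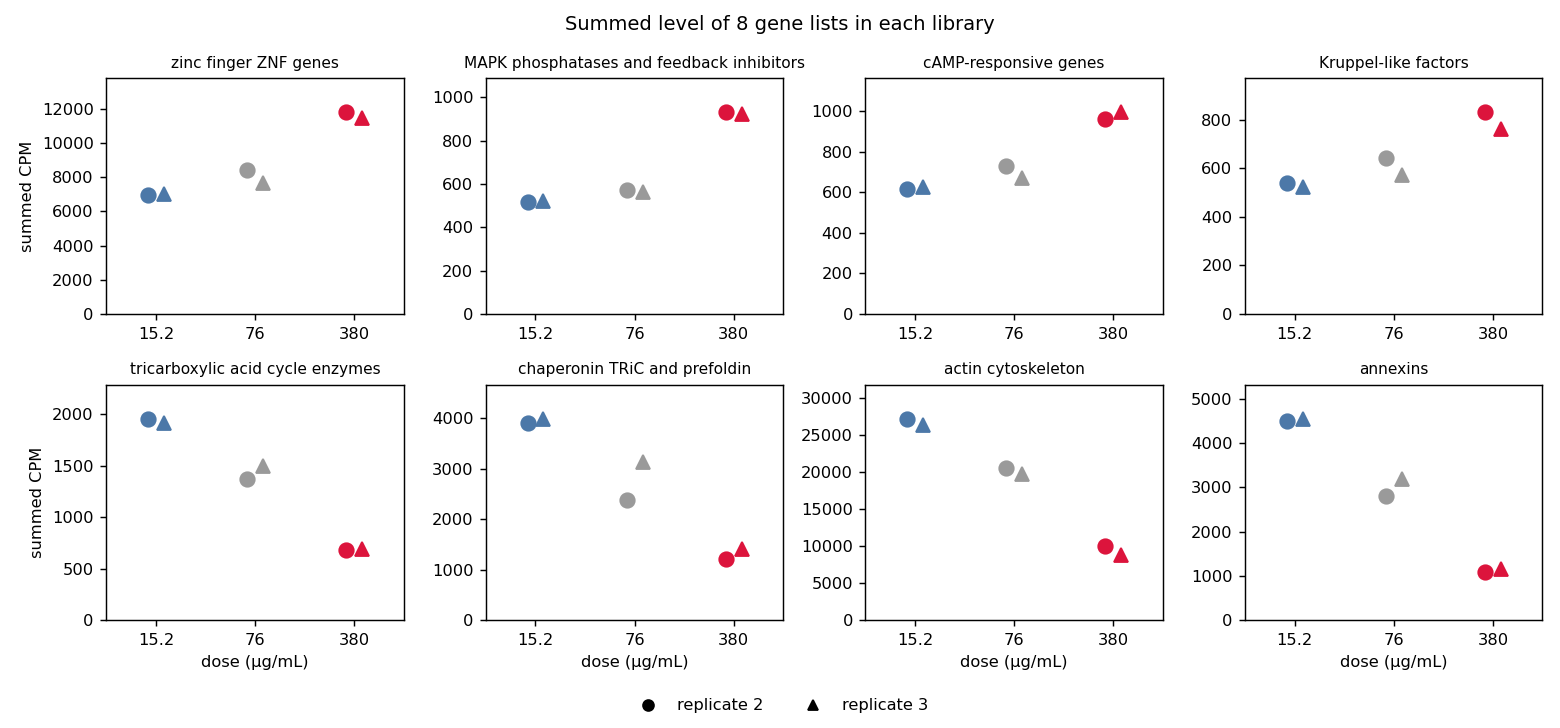
Summed CPM of the members of 8 gene lists in each library against dose (15.2, 76 and 380 µg/mL, categories on the axis); circles are replicate 2 and triangles replicate 3. The lists in the upper row are highest at 380 µg/mL and those in the lower row lowest, with medium-dose libraries between them.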

How the data were processed

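RNA of A549 cells was sequenced as stranded total RNA libraries, 4 of which are compared here and 2 more given beside them. The authors deposited estimated (expected) counts per gene; per the submitters' processing notes the tools were RSEM 1.3.3 and STAR 2.7.3a on GRCh38, after Trim Galore 0.6.5 and FastQC 0.11.9, and no source used here names the annotation release. RSEM shares reads among similar genes, so values of close copies depend on that split. Every column of the table was mapped to a sample by its label.

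The deposited expected counts were rounded, filtered by edgeR's filterByExpr and scaled by TMM. The edgeR 4.0.16 quasi-likelihood test (R 4.3.3) was fitted to 54 libraries of 7 extracts in 21 groups, with 33 residual degrees of freedom, leaving out the vehicle and Okbyeongpung-san libraries. Contrasts were tested over 18355 genes with Benjamini-Hochberg adjustment and a threshold of 0.05. Standard errors were computed as |log2 fold change| over the root of the F statistic. With 2 libraries per dose, p-values and standard errors use the spread between libraries within all 21 groups, a spread that may be technical. The standard deviation over genes of the log2 difference between replicates was 0.66, 0.68 and 0.42 at the high, medium and low dose. The shared spread does not follow this difference between doses. Libraries were put in classes by whether ENSG00000282955 lay above 8 CPM. The fit was also run on simulated counts with few genes changed and no library classes. That run does not cover changes this broad.

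Named were the 15 highest and 15 lowest changes whose mean log2 CPM reached 2, with no overlap of the doses, leaving out keratin, heat shock and previously named genes, and from each of 49 gene lists up to 3 members in its main direction and 2 in the other. The comparison, members and lists were chosen with earlier results of these data known. Alternatives were DESeq2 1.42.0, other scaling, filters, library sets and covariates, a replicate block, and leaving out each library. Symbols and positions are from GENCODE 29 and a gene name table, promoters from RefSeq GRCh38.p14. Some named genes are not reported here.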

Additional observations from a re-analysis of the deposited data

How the results depend on the processing

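The counts rest on few libraries and on the spread of the other extracts. For high against low dose, 6533 genes were called with only the 6 Polygalae Radix libraries in the fit and 3612 with a 2-fold minimum, and leaving out a library gave 8938 to 9722. For high against medium dose, 1263 were called with only the 4 libraries compared, 3914 with only the 6 libraries and 1903 with a 2-fold minimum, and leaving out a library gave 6971 to 7983. For medium against low dose, edgeR called 0 with only the 4 or only the 6 libraries (unadjusted p under 0.05 at 1475 and 1476 genes, while DESeq2 on the whole fit called 2372), 102 with a 2-fold minimum, 1267 within the class and 591 to 4308 with a library left out. The cause was not tested.

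With the replicate number as a block, 11201 genes were called for high against low, 9356 for high against medium and 3457 for medium against low dose. The difference of replicate 2 minus replicate 3 was taken within each dose and correlated over genes between doses. The correlation was 0.05 for high and low, 0.58 for high and medium and 0.07 for medium and low dose. Replicate 2 of the high and of the medium dose were both high in ENSG00000282955 (37.6 and 52.4 CPM), unlike the low-dose libraries. The part of this split in the 0.58 was not tested. With 2 numbers only, the numbers are not shown to pair the samples.

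With a 2-fold minimum the TRIM ligases had 1 higher and 2 lower, and with no filter on low counts the sphingolipid enzymes had 5 higher and 7 lower, both against their main direction. By a set ratio, the 2-fold minimum also cut the main-direction count of 37 other lists of the 49. With only the 6 Polygalae Radix libraries, 16 lists had fewer by that ratio, and with only the 4 compared, 14. All 225 named genes kept direction and side of the threshold under DESeq2, its size factors, a replicate block, and with vehicle libraries added. Other settings kept fewer of the calls. With only the 6 Polygalae Radix libraries in the fit, 28 of the 225 were no longer called, and with only the 4 libraries compared, 17. A 2-fold minimum left out 83. Genes with few counts limit precision, and many could not be called in either direction.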
